A study of Arabidopsis thaliana with 18 samples.

Results

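The genes described here are 46 nuclear genes of Arabidopsis thaliana that encode the light-harvesting antenna proteins, the nuclear-encoded subunits of photosystem I (PSI) and photosystem II (PSII), and the Rubisco small subunit. They were taken by gene identifier from a table of 37336 genes, and the list was drawn up with earlier results of these data known. By complex there were 6 PSI antenna genes (LHCA), 14 PSII antenna genes (LHCB), 12 PSI subunit genes (PSA), 10 PSII subunit genes (PSB) and 4 Rubisco small subunit genes (RBCS). RNA-seq had been carried out on whole germinating seed after 48 h of cold, dark stratification at 4 °C and 24 h in continuous light at 22 °C (24 h SL). The mutants were lmi1, obp1, athb15, vnd2, hat2, wrky14, smb and athb25, each a homozygous T-DNA insertion line in the transcription factor gene it is named for, and Col-0, the wild type. Every genotype had 2 libraries, 18 in all, made from seed pooled over several parent plants, and each mutant was represented by a single insertion line.

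The photosystems are chlorophyll-protein complexes of the thylakoid membrane. Antenna proteins bind chlorophyll and carotenoids and pass excitation energy to the reaction centres, whose core proteins are encoded in the plastid while the peripheral subunits are encoded in the nucleus. Rubisco fixes CO2 in the Calvin cycle, with a nuclear-encoded small subunit and a plastid-encoded large subunit. In germinating seed these nuclear genes are switched on by light as the cotyledons green and the plastids become chloroplasts.

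Library totals ran from 18146206 to 33111743 counts. Transcripts of ATHB15, ATHB25, HAT2, LMI1 and SMB were called lower in their own lines. The VND2 transcript had 0.296 and 0.304 CPM (counts scaled to library size) in vnd2, against 0.621 and 0.417 CPM in Col-0, and was not called (adjusted p = 0.414). The OBP1 transcript had 13.9 and 11.5 CPM in the libraries labelled obp1, against 8.93 and 8.45 CPM in Col-0 (adjusted p = 0.0262), and the WRKY14 transcript had 9.58 and 11.2 CPM in the libraries labelled wrky14, against 0.287 and 0.341 CPM in Col-0 (adjusted p = 3.38e-09). Neither transcript was lower than in Col-0, so both groups are called by their labels throughout. Counts of a transcript do not show whether its protein was lost. The paper reported a single insertion at the intended gene in every mutant line, from whole-genome resequencing and PCR genotyping. The word "called" is used for a gene whose adjusted p was below 0.01 in edgeR's quasi-likelihood test with Benjamini-Hochberg adjustment over 19100 tested genes.

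Several antenna genes are near-identical copies, and LHCB1, the main protein of the PSII antenna trimer, is encoded by 5 of them. LHCB1.1, LHCB1.2 and LHCB1.3 (named CAB2, CAB3 and CAB1 by RefSeq) lie side by side on chromosome 1, between chr1:10472280 and chr1:10479114 of TAIR10, and LHCB1.4 and LHCB1.5 (LHB1B1 and LHB1B2) lie on chromosome 2. Their coding sequences are shown over 60 bases, coding bases 241 to 300 of LHCB1.3 in RefSeq TAIR10.1, because the copies carried very different numbers of reads. Capitals mark bases that differ from LHCB1.3.
LHCB1.3: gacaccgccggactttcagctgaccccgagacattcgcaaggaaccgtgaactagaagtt
LHCB1.1: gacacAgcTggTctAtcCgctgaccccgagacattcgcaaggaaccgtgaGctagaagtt
LHCB1.2: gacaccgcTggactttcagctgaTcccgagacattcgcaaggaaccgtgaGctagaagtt
LHCB1.4: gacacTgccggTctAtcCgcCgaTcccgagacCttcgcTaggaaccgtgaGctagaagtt
LHCB1.5: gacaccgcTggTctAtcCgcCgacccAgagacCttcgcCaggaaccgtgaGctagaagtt
Over the whole coding sequence LHCB1.3 was 96.1% identical to LHCB1.1, 96.4% to LHCB1.2, 86.7% to LHCB1.4 and 89.3% to LHCB1.5. Of all stretches of 75 bases in the annotated exons, 92.5% in LHCB1.3, 89.6% in LHCB1.1, 96.3% in LHCB1.2, 92.7% in LHCB1.4 and 90.7% in LHCB1.5 occurred once in the genome.

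The copies differed in transcript level by more than the genotypes did. LHCB1.3 had a mean of 81.3 CPM per kilobase of exon over the 18 libraries, LHCB1.2 had 2.27 and LHCB1.1 had 1.29. The level per kilobase of LHCB1.3 was 45.7 to 104.5 times that of LHCB1.1 and 25.5 to 65.7 times that of LHCB1.2 in single libraries. LHCB1.4 received 3 counts over all 18 libraries and LHCB1.5 received 0, so neither was tested, and the other 44 genes passed the count filter. How reads that fit several copies were counted is not given in the sources used here, so values of LHCB1.1 to LHCB1.3, LHCB2.1 and LHCB2.2, and RBCS1B, RBCS2B and RBCS3B are uncertain as to which copy they belong.

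Promoters are shown for 4 genes that differed between genotypes and hold matches to light-associated motifs, as the 250 bases before the annotated gene start (TAIR10.1). Searched on both strands were the G-box (CACGTG), bound by bZIP and bHLH factors such as HY5 and the PIFs, the I-box core (GATAAG), and the CCA1 site (AAAAATCT or AACAATCT). Capitals mark matches. The windows are chr3:17495034-17495283 on the minus strand for LHCA4, chr1:19454548-19454797 on the plus strand for PSAH2, chr4:2673244-2673493 on the minus strand for PSBQ2 and chr5:15382072-15382321 on the minus strand for RBCS2B.
LHCA4: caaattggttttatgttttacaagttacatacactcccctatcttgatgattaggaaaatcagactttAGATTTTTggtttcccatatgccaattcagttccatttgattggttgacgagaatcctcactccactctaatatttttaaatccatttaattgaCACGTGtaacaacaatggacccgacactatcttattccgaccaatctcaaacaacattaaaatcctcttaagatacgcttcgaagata
PSAH2: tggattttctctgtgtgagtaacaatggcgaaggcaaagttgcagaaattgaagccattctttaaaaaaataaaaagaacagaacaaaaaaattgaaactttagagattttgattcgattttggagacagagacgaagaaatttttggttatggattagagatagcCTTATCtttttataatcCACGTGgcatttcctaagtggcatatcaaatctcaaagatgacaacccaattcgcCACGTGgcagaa
PSBQ2: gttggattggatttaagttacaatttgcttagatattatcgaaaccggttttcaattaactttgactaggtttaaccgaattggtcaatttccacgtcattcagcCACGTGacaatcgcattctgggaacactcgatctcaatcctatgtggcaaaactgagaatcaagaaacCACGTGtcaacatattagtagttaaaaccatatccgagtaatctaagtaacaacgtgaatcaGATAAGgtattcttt
RBCS2B: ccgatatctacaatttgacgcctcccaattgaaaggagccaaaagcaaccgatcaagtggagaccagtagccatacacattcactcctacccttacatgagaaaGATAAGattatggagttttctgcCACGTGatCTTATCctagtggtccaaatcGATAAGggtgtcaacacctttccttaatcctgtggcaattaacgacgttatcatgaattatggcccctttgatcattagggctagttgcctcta
A G-box was found in 9 of the 46 promoters (19.6%), and in 6.49% of 27443 promoters of protein-coding genes with the same length. The I-box core was in 10 of 46 (21.7%) and in 12.3% of all promoters, and the CCA1 site in 6 of 46 (13.0%) and in 8.37%. The evening element (AAAATATCT) was in 1 of 46 promoters (2.17%), that of LHCA5, and in 2.36% of all promoters. In the libraries labelled obp1 the median log2 fold change over Col-0 was 0.77 for 9 tested genes with a G-box and 0.78 for 35 without.

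Transcript levels differed widely within and between the complexes. RBCS1A, encoding the main Rubisco small subunit, had a mean of 2098 CPM per kilobase and was the highest of the 46 genes. The RBCS genes together made up 56.4% of the CPM of the 46 genes and the PSII subunits 25.2%. PSI antenna genes contributed 4.94%, PSII antenna genes 7.31% and PSI subunits 6.12%. The highest PSII subunits were PSBR, a small subunit beside the oxygen-evolving complex, at 306 CPM per kilobase, PSBX at 180.1, the oxygen-evolving proteins PSBP1 at 178 and PSBO1 at 154, and PSBS, which triggers the dissipation of excess light energy, at 131. The median was 33.1 CPM per kilobase for PSI antenna genes, 20.7 for PSI subunits and 14.2 for PSII antenna genes. Of the 44 tested genes 8 exceeded 100 CPM per kilobase and 9 were at or below 10, the lowest being LHCB2.3 at 0.295.

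**Figure D1:**
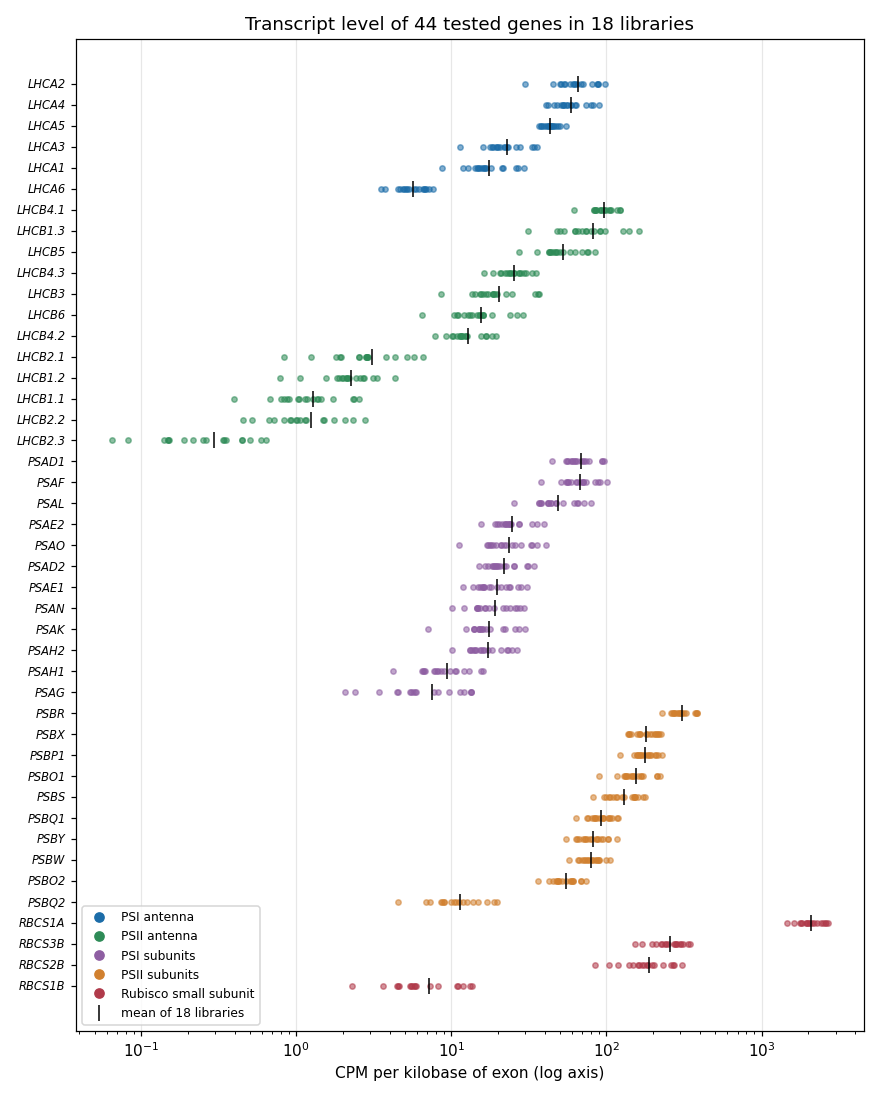
Level of the 44 tested genes in CPM per kilobase of exon on a log axis, grouped by complex and ordered by mean. Each point is 1 of 18 libraries and the black tick is their mean. RBCS1A stands highest, at 2098, and LHCB2.3 lowest, at 0.295.

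Where 2 genes encode the same subunit, one usually dominated in every library. PSBO1 was 2.45 to 3.52 times as high per kilobase as PSBO2, PSAD1 was 2.62 to 3.95 times as high as PSAD2 (both encode the ferredoxin-docking subunit PsaD), and PSAH2 was 1.48 to 2.4 times as high as PSAH1. The level ratio of PSBQ1 to PSBQ2, which encode an extrinsic protein of the oxygen-evolving complex, was 6.08 and 6.25 in the libraries labelled obp1, 10.4 and 14.1 for vnd2, and 9.36 and 8.06 in Col-0. The ratio of RBCS1A to RBCS1B was 203.1 and 203.2 in the libraries labelled obp1, 461 and 632 for vnd2, and 308 and 357 in Col-0. For both pairs the dominant copy differed less between genotypes than the minor one.

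Nearly all of these genes varied among the 9 genotypes. A test of any difference among genotypes called 41 of the 44 tested genes, against 11.9% of all genes tested. LHCA6 (adjusted p = 0.0731), LHCB4.1 (adjusted p = 0.0152) and RBCS1A (adjusted p = 0.0363) were not called. The highest genotype mean was in the libraries labelled obp1 for 36 genes, in hat2 for 5 and in lmi1 for 3, and the lowest was in vnd2 for 41 genes and in smb for 3. The ratio of the highest to the lowest genotype mean had a median of 3.42 in the PSII antenna, 2.25 in PSI subunits, 2.17 in the PSI antenna, 1.92 in RBCS genes and 1.65 in PSII subunits. It was largest for LHCB2.3 (5.33, on 211 counts in all), LHCB2.2 (4.50) and LHCB1.1 (4.37), and smallest for LHCA5 (1.35). LHCA5 and LHCA6 encode antenna proteins made in small amounts that take part in joining PSI to the NDH complex.

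**Figure D2:**
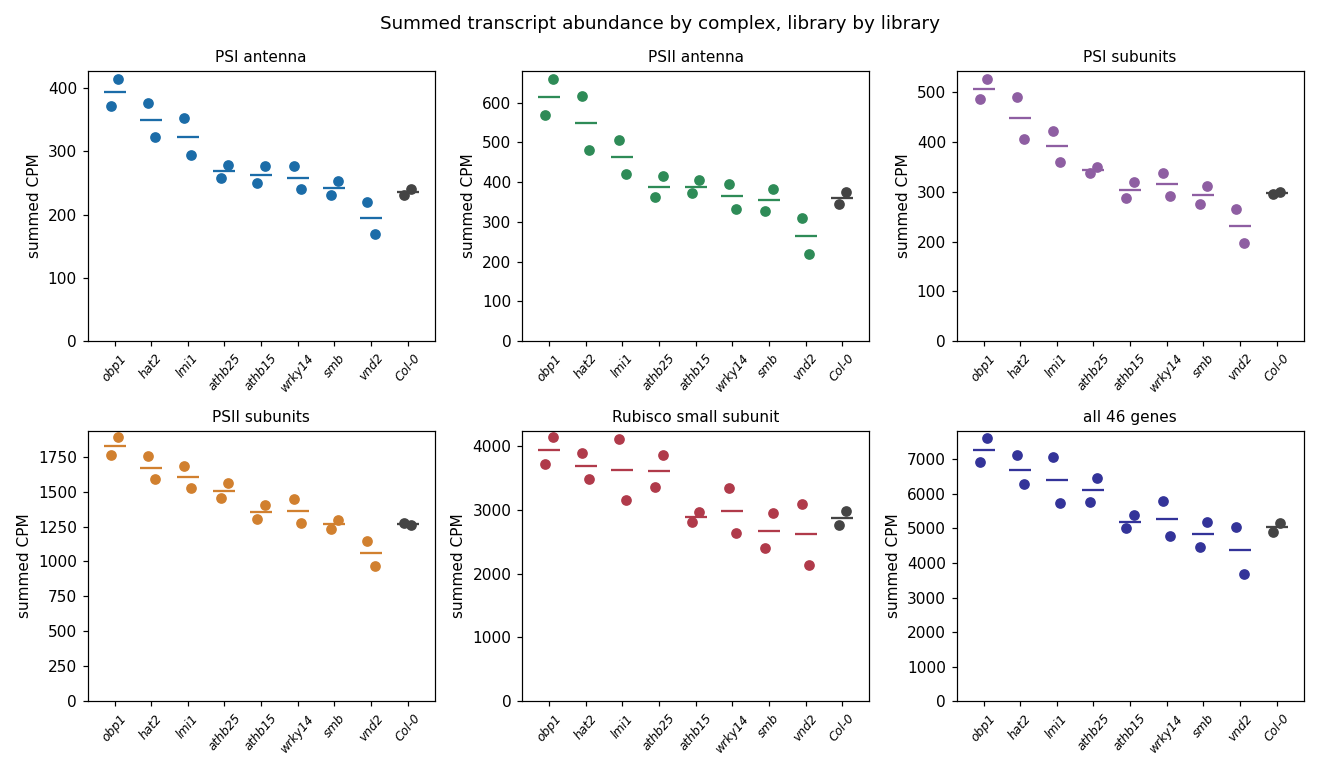
Summed CPM of the genes of each complex, and of all 46 genes, in each genotype. Each point is 1 library and the bar is the mean of 2, with Col-0 in grey at the right. All 46 genes summed to 6913 and 7624 CPM in the libraries labelled obp1, 5035 and 3691 for vnd2, and 4910 and 5163 in Col-0.

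Summed over the 6 PSI antenna genes, CPM were 371 and 415 in the libraries labelled obp1, 377 and 322 in hat2, 353 and 294 in lmi1, 258 and 279 in athb25, 249.7 and 276 in athb15, 231 and 253 in smb and 219 and 169 in vnd2, with 276 and 240.2 in the libraries labelled wrky14, against 231 and 239.95 in Col-0. Both libraries stood above both Col-0 libraries in 6 of the 8 lines, smb and vnd2 being the exceptions, and both vnd2 libraries stood below. LHCA1 to LHCA4 form the belt of antenna proteins around PSI. LHCA2 was the highest of them per kilobase and had 122 and 138 CPM in the libraries labelled obp1, 71.6 and 42.1 CPM in vnd2 and 75.3 and 75.9 CPM in Col-0. LHCA5 varied least between genotypes and had 49.5 and 58.8 CPM in the libraries labelled obp1, 45.7 and 40.8 CPM in vnd2 and 41.6 and 44.5 CPM in Col-0.

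Summed over the 14 PSII antenna genes, CPM were 569.6 and 659 in the libraries labelled obp1, 617 and 482 in hat2, 505 and 419 in lmi1, 363 and 415 in athb25, 372 and 405 in athb15, 327 and 382 in smb and 309.6 and 219 in vnd2, with 396 and 332 in the libraries labelled wrky14, against 344 and 375 in Col-0. LHCB4 and LHCB5 encode minor antenna proteins next to the PSII core, and LHCB4.1 had 148 and 171 CPM in the libraries labelled obp1, 171 and 149.9 CPM in hat2, 120.0 and 86.2 CPM in vnd2 and 116 and 119.5 CPM in Col-0. The trimer gene LHCB2.1 had 7.32 and 8.07 CPM in the libraries labelled obp1, 9.22 and 5.32 CPM in hat2, 2.55 and 1.17 CPM in vnd2 and 2.72 and 4.02 CPM in Col-0. The trimer gene spread more between genotypes than the minor antenna gene, with ratios of the highest to the lowest genotype mean of 4.13 for LHCB2.1 and 1.56 for LHCB4.1.

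Summed over the 12 PSI subunit genes, CPM were 488 and 527 in the libraries labelled obp1, 491 and 405 in hat2, 423 and 361 in lmi1, 337 and 349.7 in athb25, 288 and 319.5 in athb15, 275 and 312 in smb and 266 and 198 in vnd2, with 338 and 292 in the libraries labelled wrky14, against 296 and 299 in Col-0. PSAF, which helps plastocyanin to dock, had 109.9 and 122 CPM in the libraries labelled obp1, 61 and 45.7 CPM in vnd2 and 67.8 and 66.2 CPM in Col-0. PSAL, next to the docking site of the antenna trimers, had 73.1 and 91.3 CPM in the libraries labelled obp1, 42.8 and 29.1 CPM in vnd2 and 47.9 and 48 CPM in Col-0. In both genes the libraries labelled obp1 were highest and the vnd2 libraries lowest of these 3 groups, with no overlap. PSAG was also high in athb25, at 7.59 and 10.4 CPM, and in lmi1, at 10.4 and 6.01 CPM, against 3.49 and 4.21 CPM in Col-0, and was called in neither.

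Summed over the 10 PSII subunit genes, CPM were 1759 and 1887 in the libraries labelled obp1, 1756 and 1587 in hat2, 1685 and 1528 in lmi1, 1452 and 1562 in athb25, 1304 and 1405 in athb15, 1233 and 1297 in smb and 1150 and 968 in vnd2, with 1449 and 1275 in the libraries labelled wrky14, against 1275 and 1262 in Col-0. PSBO1, which stabilises the manganese cluster of the oxygen-evolving complex, had 318 and 336 CPM in the libraries labelled obp1, 177 and 136 CPM in vnd2 and 197 and 200.4 CPM in Col-0. PSBP1 had 279.6 and 310.2 CPM in the libraries labelled obp1, 205 and 166 CPM in vnd2 and 212 and 213 CPM in Col-0. In both genes these 3 groups did not overlap.

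Summed over the 4 RBCS genes, CPM were 3726 and 4136 in the libraries labelled obp1, 3886 and 3480 in hat2, 4114 and 3149 in lmi1, 3362 and 3857 in athb25, 2804 and 2970 in athb15, 2401 and 2948 in smb and 3091 and 2137 in vnd2, with 3336 and 2636 in the libraries labelled wrky14, against 2763 and 2987 in Col-0. RBCS3B had 490.0 and 396 CPM in lmi1, 428 and 440.3 CPM in athb25, 321 and 216 CPM in vnd2 and 295 and 339 CPM in Col-0. RBCS2B had 245 and 252 CPM in the libraries labelled obp1, 97.5 and 129.8 CPM in smb, 149.7 and 79.1 CPM in vnd2 and 151 and 138 CPM in Col-0. The vnd2 libraries fell on either side of Col-0 in the summed RBCS level.

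The largest change was in the libraries labelled obp1. Genes of all 5 complexes were higher there than in Col-0, and 28 of 44 were called, all higher, while 2.51% of all genes tested were called higher. By complex these were 4 of 6 PSI antenna genes, 5 of 12 PSII antenna genes, 10 of 12 PSI subunits, 8 of 10 PSII subunits and 1 of 4 RBCS genes. In all 44 genes both obp1 libraries lay above both Col-0 libraries, as did 25.6% of all genes tested. The median log2 fold change was 0.78 over the 44 genes, and -0.02 over all genes tested. It was 0.82 for the PSI antenna, 0.80 for the PSII antenna, 0.82 for PSI subunits, 0.48 for PSII subunits and 0.61 for RBCS genes.

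Antenna genes held 3 of the 4 largest called rises. LHCB2.2 (AT2G05070), a copy of the PSII antenna protein that is phosphorylated when light energy is shared between the photosystems, had 2.37 and 2.64 CPM in the libraries labelled obp1, against 0.764 and 1.06 CPM in Col-0 (log2 fold change 1.43, SE 0.33; edgeR adjusted p = 0.00912). LHCB3 (AT5G54270, chr5:22038165-22039568), a component of the PSII antenna trimers, had 45.7 and 44.7 CPM in the libraries labelled obp1, against 17.7 and 19.97 CPM in Col-0 (log2 fold change 1.26, SE 0.18; edgeR adjusted p = 0.000254). LHCB1.3 had 158 and 199.99 CPM in the libraries labelled obp1, against 77.6 and 90.5 CPM in Col-0 (log2 fold change 1.09, SE 0.19; edgeR adjusted p = 0.00171). In each of these genes the lower obp1 library was well above the higher Col-0 library. LHCA4 (AT3G47470, chr3:17493343-17495033), which binds the low-energy chlorophylls of PSI, had 106 and 115 CPM in the libraries labelled obp1, against 59.6 and 62.3 CPM in Col-0, a log2 fold change of 0.86.

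Among the Rubisco genes the minor copy was the one called. RBCS1B (AT5G38430, chr5:15383167-15385320) had 22.6 and 24.9 CPM in the libraries labelled obp1, against 11.2 and 10.5 CPM in Col-0 (log2 fold change 1.14, SE 0.26; edgeR adjusted p = 0.00957), and was not called with DESeq2's Wald test (adjusted p = 0.0321). Summed with its near-identical copies RBCS2B and RBCS3B it was not called either (log2 fold change 0.57; edgeR adjusted p = 0.04945). RBCS1A had 3068 and 3388 CPM in the libraries labelled obp1, against 2306 and 2499 CPM in Col-0, and was not called (log2 fold change 0.43; adjusted p = 0.0725). The 16 tested genes that were not called had log2 fold changes of 0.26 to 1.36, and the largest belonged to PSAG, a PSI subunit that helps to bind plastocyanin and the antenna, at 10.4 and 9.47 CPM in the libraries labelled obp1, against 3.49 and 4.21 CPM in Col-0 (adjusted p = 0.0291). The called PSII subunits had smaller changes, 0.41 for PSBR to 0.90 for PSBQ2.

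The number of calls depended on single libraries. It was 17 without obp1 replicate 1, 10 without obp1 replicate 2, 8 without Col-0 replicate 1 and 11 without Col-0 replicate 2, while the median log2 fold change stayed between 0.71 and 0.80. Of the 44 tested genes 16 overlap another annotated gene, and 28 do not. In the libraries labelled obp1 12 of the overlapping genes and 16 of the others were called, with medians of 0.82 and 0.75. The sum of 14 seed storage and oil body transcripts was 2140 and 2492 CPM there, against 2395 and 1999 CPM in Col-0, where edgeR called 0 of 14 and 4 had an unadjusted p below 0.05. The sum of 4 endosperm markers was 11105 and 5957 CPM, against 6427 and 5205 CPM in Col-0, where edgeR called 0 of 4 and 2 had an unadjusted p below 0.05. The sum of 8 root tip markers was 108 and 108 CPM, against 115 and 119 CPM in Col-0. Their part in the result was not tested, and in whole seed more RNA per cell and more cells of a type cannot be told apart.

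**Figure D3:**
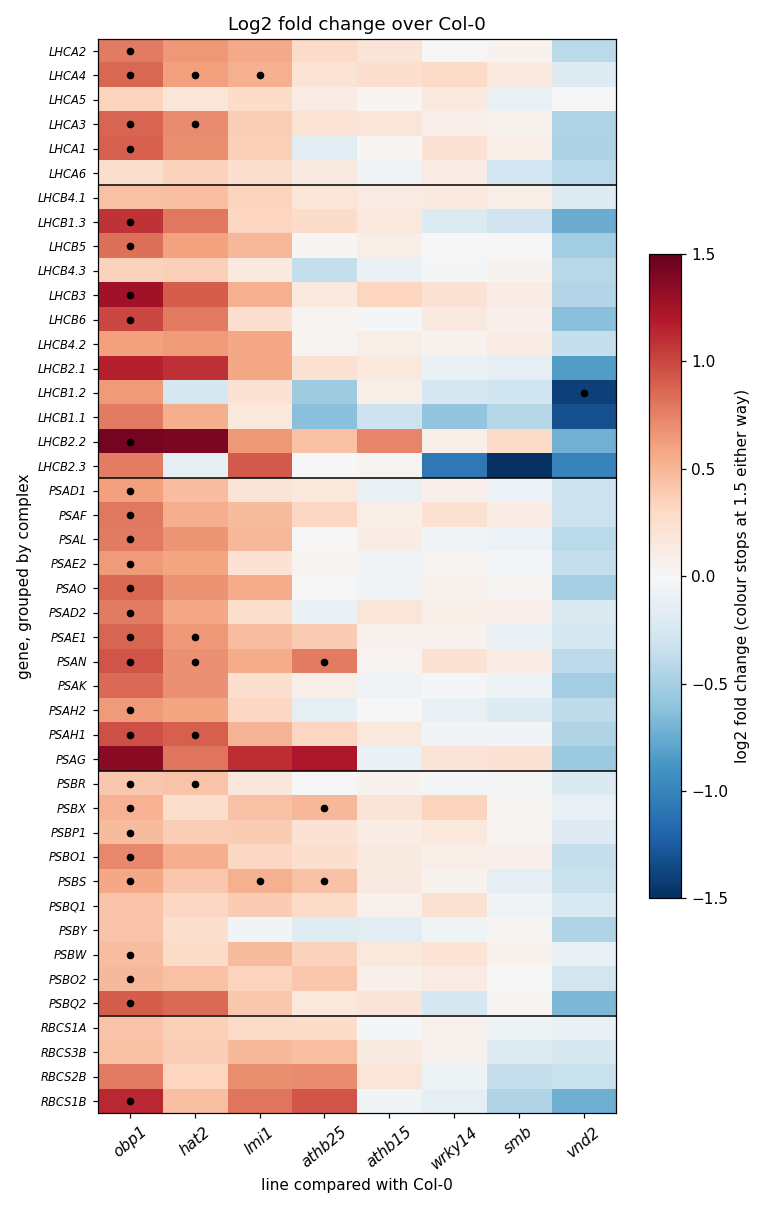
Log2 fold change of the 44 tested genes over Col-0 (colour) in 8 lines, with genes grouped by complex and black dots on the called ones. The obp1 column is red throughout, with 28 dots, hat2 has 6, athb25 has 3, lmi1 has 2, and vnd2 is blue for all but LHCA5, with 1 dot on LHCB1.2.

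In hat2 the same complexes were higher than in Col-0, by a smaller amount. Of 44 genes 6 were called, all higher, against 0.393% of all genes tested that were called higher. These were LHCA3 and LHCA4 of the PSI antenna, PSAE1, PSAH1 and PSAN of PSI, and PSBR of PSII. PSAH1 (AT3G16140), a subunit at the site where antenna trimers dock on PSI, had 20.2 and 15.8 CPM in hat2, against 8.60 and 10.7 CPM in Col-0 (log2 fold change 0.89, SE 0.16; edgeR adjusted p = 0.006). LHCA3 had 55.1 and 45.1 CPM in hat2, against 29.7 and 31.5 CPM in Col-0 (log2 fold change 0.71, SE 0.14; edgeR adjusted p = 0.00802). PSAN (AT5G64040, chr5:25628521-25629708), a subunit on the lumen side of PSI, had 26.0 and 21.8 CPM in hat2, against 14.9 and 14.8 CPM in Col-0 (log2 fold change 0.69, SE 0.12; edgeR adjusted p = 0.00599). Against the mean of the other 7 mutants PSAN was not called in hat2 (log2 fold change 0.37; edgeR adjusted p = 0.0272). In PSAH1, LHCA3 and PSAN both hat2 libraries were above both Col-0 libraries. Of the 6 called genes 5 overlap another annotated gene (all but LHCA3), and whether the strand was used in counting is not given in the sources used here.

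The unadjusted p was below 0.05 for 37 of the 44 genes in hat2, and the share of all genes with such a p was not computed. Both hat2 libraries lay above both Col-0 libraries for 41 genes and below them for 1, against 20.9% and 24.5% of all genes tested. LHCB1.2 and LHCB2.3 were the only 2 tested genes with a negative log2 fold change there. The median was 0.56 over the 44 genes, with 0.65 in PSI subunits, 0.63 in the PSI antenna, 0.62 in the PSII antenna, 0.39 in PSII subunits and 0.36 in RBCS genes. Replicate 1 was the higher one: LHCB3 had 42.8 and 27.9 CPM in hat2, against 17.7 and 19.97 CPM in Col-0 (adjusted p = 0.011). The count of calls was 0 without hat2 replicate 1, 11 without hat2 replicate 2 and 0 without either Col-0 library, and DESeq2's Wald test called 19. Seed storage and oil body transcripts summed to 1107 and 999 CPM in hat2, against 2395 and 1999 CPM in Col-0. These 14 genes had a median log2 fold change of -1.09, against -0.01 over all genes tested. Their part in the result was not tested.

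Fewer genes passed the test in lmi1 and athb25. In lmi1 2 of 44 were called, both higher, against 0.476% of all genes tested that were called higher. PSBS (AT1G44575, chr1:16870221-16873427) had 313 and 277 CPM in lmi1, against 208 and 199 CPM in Col-0 (log2 fold change 0.54, SE 0.09; edgeR adjusted p = 0.00243). LHCA4 had 95.7 and 80.6 CPM in lmi1, against 59.6 and 62.3 CPM in Col-0 (log2 fold change 0.53, SE 0.09; edgeR adjusted p = 0.00345). Against the mean of the other 7 mutants LHCA4 was not called (log2 fold change 0.22; edgeR adjusted p = 0.123). The median over the 44 genes was 0.39, and both lmi1 libraries were above both Col-0 libraries for 36 genes, against 24.4% of all genes tested. The count was 0 without lmi1 replicate 1 or without either Col-0 library and 6 without lmi1 replicate 2.

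In athb25 3 of 44 genes were called, all higher, against 0.984% of all genes tested that were called higher. PSAN had 22.9 and 28.2 CPM in athb25, against 14.9 and 14.8 CPM in Col-0 (log2 fold change 0.78, SE 0.13; edgeR adjusted p = 0.00173). PSBX, a small PSII subunit, had 152 and 155 CPM in athb25, against 99.8 and 117 CPM in Col-0 (log2 fold change 0.50, SE 0.11; edgeR adjusted p = 0.0097). PSBS had 274 and 278 CPM in athb25, against 208 and 199 CPM in Col-0 (log2 fold change 0.44, SE 0.09; edgeR adjusted p = 0.00784). Against the mean of the other 7 mutants PSBX (log2 fold change 0.26; edgeR adjusted p = 0.0485) and PSBS (0.27; adjusted p = 0.019) were not called, and the median over the 44 genes was -0.0137, against 0.19 over Col-0. The complexes were less alike than in the libraries labelled obp1: the median was 0.58 for RBCS genes, 0.27 for PSII subunits, 0.17 for the PSI antenna, 0.12 for PSI subunits and 0.04 for the PSII antenna. RBCS1B had 20.9 and 20.6 CPM in athb25, against 11.2 and 10.5 CPM in Col-0, with the libraries apart but the gene not called (adjusted p = 0.0427). Both athb25 libraries were above both Col-0 libraries for 25 genes and below them for 5, against 26.2% and 26.5% of all genes tested. The count of calls in athb25 was 1 without athb25 replicate 1, and 0 without athb25 replicate 2 or either Col-0 library.

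No tested gene was called in athb15, in smb or in the libraries labelled wrky14, where edgeR called 0.147%, 2.15% and 1.16% of all genes. The unadjusted p was below 0.05 for 1 of the 44 genes in athb15, 1 in smb and 3 in the libraries labelled wrky14, and DESeq2's Wald test also called 0 in each. The median log2 fold change was 0.09 in athb15, -0.01 in smb and 0.06 in the libraries labelled wrky14. Both athb15 libraries were above both Col-0 libraries for 19 genes and below them for 2, against 21.4% and 22.8% of all genes tested. In smb 5 genes lay above and 13 below, against 20.9% and 22.1%, and in the libraries labelled wrky14 13 lay above and 3 below, against 22.9% and 22.6%. The lowest log2 fold change of any tested gene in any line was that of LHCB2.3 in smb, at 0.218 and 0.0949 CPM in smb, against 0.382 and 0.493 CPM in Col-0, on 4 and 3 counts in smb and 8 and 13 in Col-0 (adjusted p = 0.207). In smb 7 of 14 seed storage and oil body genes were called higher, against 2.15% of all genes called in either direction. The 14 genes summed to 5031 and 5520 CPM in smb, against 2395 and 1999 CPM in Col-0.

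In vnd2 the genes lay below Col-0, and a single one was called. LHCB1.2 had 1.29 and 0.956 CPM in vnd2, against 2.67 and 3.30 CPM in Col-0 (log2 fold change -1.40, SE 0.23; edgeR adjusted p = 0.000473). Genes called lower made up 2.16% of all genes tested, so 1 of 44 is near that background. Both vnd2 libraries were below both Col-0 libraries for 36 genes, against 25.6% of all genes tested. The unadjusted p was below 0.05 for 30 genes, and the share of all genes with such a p was not computed. The median log2 fold change was -0.40 over the 44 genes, and -0.67 in the PSII antenna, -0.41 in the PSI antenna, -0.39 in PSI subunits, -0.29 in RBCS genes and -0.26 in PSII subunits. The other copies of LHCB1 were low as well: LHCB1.1 had 0.887 and 0.522 CPM in vnd2, against 1.81 and 1.78 CPM in Col-0 (adjusted p = 0.0165), and LHCB1.3 had 61.8 and 38.5 CPM in vnd2, against 77.6 and 90.5 CPM in Col-0 (adjusted p = 0.0239). With counts summed over near-identical copies no gene was called.

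The vnd2 libraries differed from each other. All 46 genes summed to 5035 CPM in replicate 1 and 3691 CPM in replicate 2, and the replicate 1 sum lay between the Col-0 sums of 4910 and 5163. RBCS1A had 2612 and 1838 CPM in vnd2, against 2306 and 2499 CPM in Col-0, so the groups overlapped. The count of calls was 9 without vnd2 replicate 1 and 0 without vnd2 replicate 2, with medians of -0.62 and -0.17, and 0 without Col-0 replicate 2. Seed storage and oil body transcripts summed to 12654 and 7522 CPM in vnd2, against 2395 and 1999 CPM in Col-0. These 14 genes had a median log2 fold change of 1.63, against 5.8e-05 over all genes tested. Their part in the result was not tested. The replicate with the lower storage sum was also the one with the lower sum over the 46 genes.

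**Figure D4:**
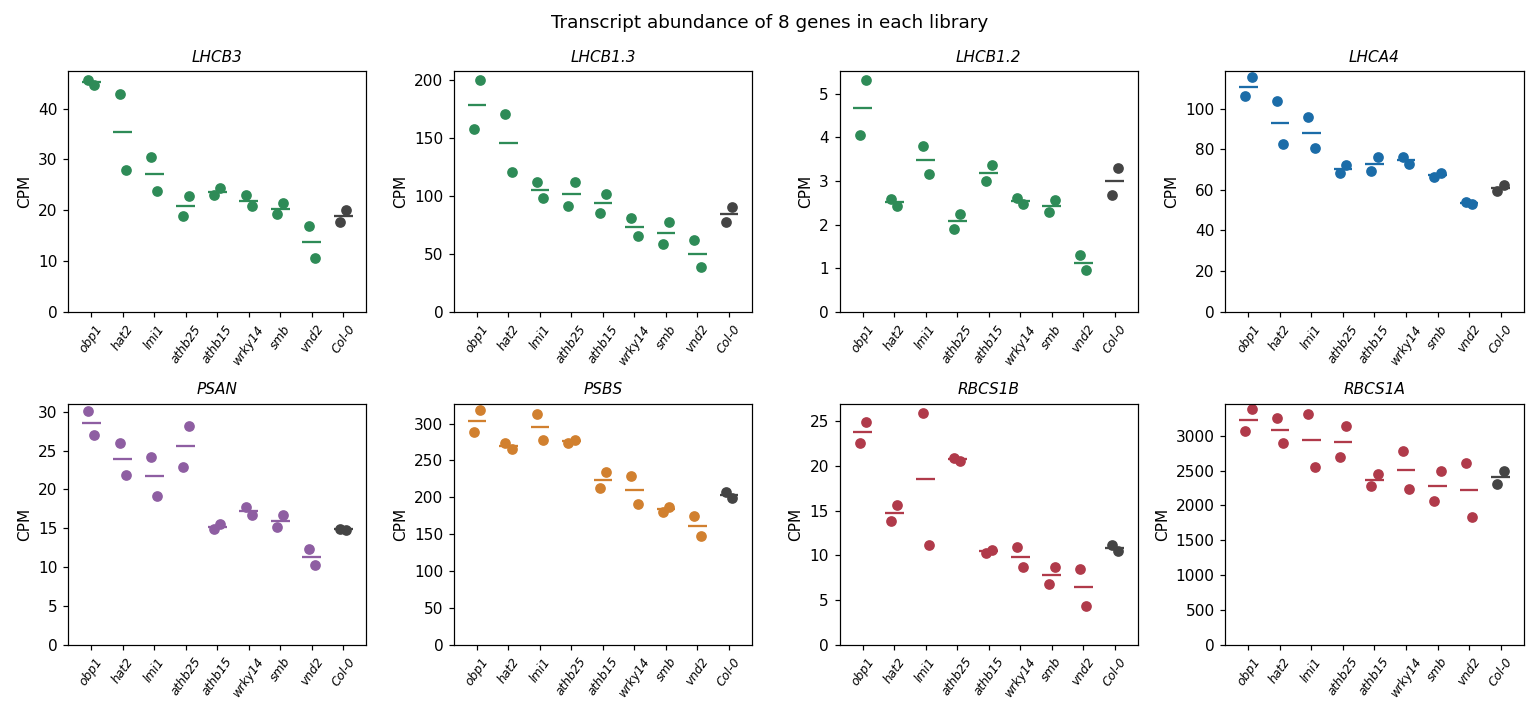
CPM of 8 genes in each library of 8 lines and Col-0, with points for libraries and bars for means of 2. LHCB3 was at 45.7 and 44.7 in the libraries labelled obp1, against 17.7 and 19.97 in Col-0. LHCB1.2 was at 1.29 and 0.956 in vnd2, and RBCS1A overlapped between vnd2 and Col-0.

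The libraries labelled obp1 and vnd2 were also compared directly, a pair chosen with the results above known. Of 44 genes 40 were called, all higher in the libraries labelled obp1, against 5.1% of all genes tested. LHCA5 (adjusted p = 0.0102), RBCS1A (0.0155), LHCB2.3 (0.0152) and LHCA6 (0.0273) were not called. The median log2 difference was 1.73 in the PSII antenna, 1.16 in PSI subunits, 1.12 in the PSI antenna, 0.90 in RBCS genes and 0.72 in PSII subunits. LHCB1.3 had 158 and 199.99 CPM in the libraries labelled obp1, against 61.8 and 38.5 CPM in vnd2, a log2 fold change of 1.83 (SE 0.20). LHCB5, a minor antenna protein that links the trimers to the PSII core, had 105 and 118 CPM in the libraries labelled obp1, against 49.7 and 38.0 CPM in vnd2, a log2 fold change of 1.34 (SE 0.12). Since the genotype mean was highest in the libraries labelled obp1 for 36 genes and lowest in vnd2 for 41, differences within this pair were likely from its choice. The 2 pairs of libraries did not overlap for any tested gene, which is no separate support. The share of all genes without overlap was not computed for this pair.

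Each tested gene correlated positively with the rest of the list over the libraries. Pearson's r of a gene's log2 CPM with the mean of the other tested members, over 18 libraries that include 9 genotypes, ran from 0.61 for LHCB2.3 to 0.98 for LHCA3, and was 0.76 for PSBX and 0.77 for LHCB1.2. These are descriptions, and all points share the scaling of their library. The spread of r over all genes is not given here, and genes outside the list reached values as low as -0.947 (AT3G13940). The 10 genes outside the list with the highest r with the mean profile included PTAC16 (0.974), TROL (0.962), which anchors ferredoxin reductase to the thylakoid, RCA (0.962), which encodes Rubisco activase, CRD1 (0.961), an enzyme of chlorophyll synthesis, GS2 (0.959), the plastid glutamine synthetase, STH (0.955), SSI2 (0.955) and GAPB (0.954), a Calvin cycle enzyme. AT5G19940 (0.966) and AT1G74470 (0.951) completed them.

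Genes of neighbouring pathways were read in the same fit. In the libraries labelled obp1, 8 of 14 electron transport and ATP synthase genes, 8 of 17 Calvin cycle genes and 7 of 15 tested chlorophyll synthesis genes were called, all higher, with medians of 0.41, 0.39 and 0.28, against 2.51% of all genes tested. CHLH, a subunit of the magnesium chelatase that begins the chlorophyll branch, had 338 and 344 CPM in the libraries labelled obp1, against 165 and 177 CPM in Col-0 (log2 fold change 1.00). HEMA1, the rate-limiting enzyme of tetrapyrrole synthesis, had 90.9 and 92.1 CPM there, against 48.6 and 47.3 CPM in Col-0 (log2 fold change 0.93). PRK, which regenerates the acceptor of CO2, had 175 and 161 CPM there, against 96.1 and 93.1 CPM in Col-0 (log2 fold change 0.83). ELIP1, an early light-induced antenna-like protein, had 131 and 159 CPM there, against 67.6 and 69.5 CPM in Col-0 (log2 fold change 1.08), and 3 of 7 antenna-like genes were called. Of 12 tested plastid-encoded genes 0 were called in any of the 8 lines by edgeR, and at most 1 had an unadjusted p below 0.05 in a line. Plastid transcripts were few in these poly(A)-selected libraries, 11.8 to 29.4 CPM summed over 14 genes, and the part of the selection was not tested.

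In hat2 6 of 17 Calvin cycle genes, 2 of 14 electron transport genes and 2 of 15 chlorophyll synthesis genes were called higher, against 0.393% of all genes tested, among them PRK at 156 and 139 CPM, against 96.1 and 93.1 CPM in Col-0. In athb25 4 of 17 Calvin cycle genes were called higher, against 0.984% of all genes tested, and in lmi1 1 of 17, against 0.476%. GAPA was called in both, at 317 and 343 CPM in athb25 and 335 and 296 CPM in lmi1, against 223 and 237 CPM in Col-0. In vnd2 1 of 14 electron transport genes, 2 of 15 chlorophyll synthesis genes and 1 of 7 antenna-like genes were called lower, against 2.16% of all genes tested. Of 17 Calvin cycle genes edgeR called 0, and 3 had an unadjusted p below 0.05. Those called were FNR2, a ferredoxin reductase, at 28.9 and 21.8 CPM in vnd2, against 36.9 and 37.3 CPM in Col-0, DVR and PORB of chlorophyll synthesis, with log2 fold changes of -0.34 and -0.33, and ELIP2 at -0.77. HEMA1 was also called higher in the libraries labelled wrky14, in athb25 and in lmi1.

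**Figure D5:**
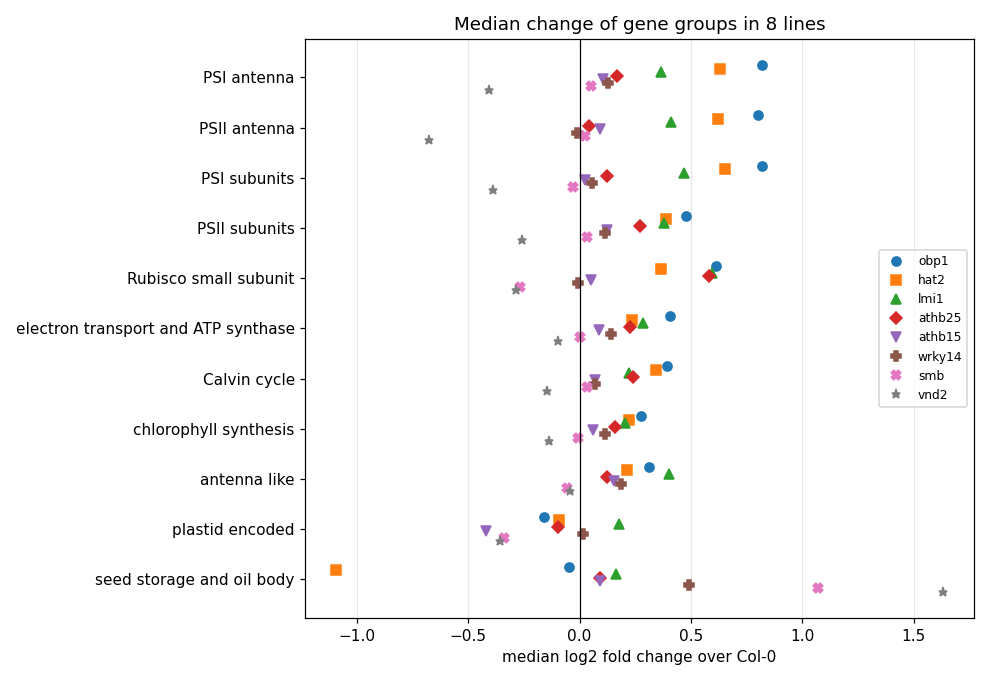
Median log2 fold change over Col-0 of each complex and of related gene lists, with 1 symbol for each line. The 5 complexes ran from 0.48 to 0.82 in the libraries labelled obp1 and from -0.67 to -0.26 in vnd2, while seed storage and oil body genes had medians of 1.63 in vnd2 and -1.09 in hat2.

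Known regulators of these genes were read in the same fit. GLK1 and GLK2, transcription factors that activate antenna and chlorophyll synthesis genes, were not called in any line: GLK1 had 35.3 and 39.4 CPM in the libraries labelled obp1, against 30.2 and 32.1 CPM in Col-0 (adjusted p = 0.12), and GLK2 had 78.0 and 84.1 CPM, against 76.4 and 69.8 CPM in Col-0 (adjusted p = 0.244). HY5, a bZIP factor of light signalling, was not called in any line either, with 38.9 and 32.1 CPM in the libraries labelled obp1, against 36.5 and 31.5 CPM in Col-0. In the libraries labelled obp1 4 of 19 regulators were called, all higher, against 2.51% of all genes tested: HYH, a homologue of HY5 (log2 fold change 0.35), CRY1, a blue light receptor (0.31), and the morning clock factors CCA1 and LHY, which were also called in hat2. CCA1 had 49.7 and 47.0 CPM in the libraries labelled obp1, against 24.7 and 28.7 CPM in Col-0 (log2 fold change 0.85), and LHY had 235 and 209 CPM, against 126 and 131 CPM in Col-0 (log2 fold change 0.79). In hat2 CCA1 had 47.1 and 39.1 CPM (log2 fold change 0.69) and LHY had 214 and 191 CPM (log2 fold change 0.66), against the same Col-0 values. In vnd2 neither was called, while PIF1, a repressor of germination and greening in the dark, had 151 and 127 CPM in vnd2, against 101 and 94.7 CPM in Col-0 (log2 fold change 0.51).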

How the data were processed

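Gene counts of germinating seed were used for 18 libraries, 2 for each of 9 genotypes, made with a stranded kit after selection of polyA RNA. The deposited counts were made by the authors, who trimmed reads with Trim Galore 0.4.2, aligned them to TAIR10 with HISAT2 2.0.5 and counted Araport11 genes with featureCounts 1.5.1. The deposited counts were whole numbers and not normalized. Whether counting used the strand, and how multiply mapping reads were treated, is not given in the sources used here, so overlapping genes and near-identical copies are uncertain.

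Genes were filtered with filterByExpr, scaled by TMM and fitted in edgeR 4.0.16 (R 4.3.3) in a single model with a term for genotype and every library. Mutants were compared with Col-0 by two-sided quasi-likelihood tests, called at an adjusted p under 0.01 over 19100 genes, and the SE is the log2 fold change divided by the square root of F. CPM used TMM-scaled library sizes, and values per kilobase were divided by exon length. The 8 comparisons share the Col-0 libraries. The common biological coefficient of variation was 5.87%. In a chi-square test the counts of replicates differed beyond sampling noise in every group (2.23 to 10.1 per degree of freedom), and each was kept as its own sample. Whether replicates came from separate seed pools is not stated, so p-values may measure technical spread only. The tests were tried on simulated counts in which some genes were changed in the obp1 group. With a log2 change of 0.5 edgeR called 52.8% of the changed genes, with 1 it called 83.3% and with 2 it called 96%. A change of about 0.5 that was not called may thus have been missed.

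The members, gene lists, tests and alternatives were chosen with earlier results of these data known. All members could be named, with full statistics for at most 4 called members a line, and other genes only from the lists if called, with 5 regulators, the targeted genes and the 10 most alike genes. Coordinates, promoters and coding sequences are from RefSeq TAIR10.1, where 46 of 46 members had the position given in the counts table. Alternatives were no filter, DESeq2 1.42.0 size factors or tests, a replicate block, models of 4 libraries, a threshold of 0.05, summed copies, the mean of the other 7 mutants as reference, and leaving out each library.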

Additional observations from a re-analysis of the deposited data

How the results depend on the processing

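The counts of calls moved between alternatives. Of the 40 calls of a member in a mutant, 25 stayed called under all 8 alternatives that use every library. All 40 kept their direction under every alternative tried. They were picked as called, so a reversal on the same counts was unlikely and their direction is no separate support. The count in the libraries labelled obp1 stayed within 1.5 times the reported 28 under those 8. Without the count filter, called members numbered 15 for athb25, 36 for hat2, 29 for lmi1, 3 for smb, 25 for vnd2 and 2 for the libraries labelled wrky14. More genes of the whole table were then called in each of these 6 lines, and the cause was not tested. With the looser threshold of 0.05 there were 5 in athb25, 23 in hat2, 11 in lmi1 and 8 in vnd2. Models of 4 libraries called 7 in athb25 and 17 in hat2. DESeq2's Wald test called 19 in hat2, 8 in lmi1 and 3 in vnd2. With near-identical copies summed, 0 were called in vnd2. Against the mean of the other 7 mutants the counts were 1 in athb25, 14 in hat2, 1 in lmi1, 1 in smb and 37 in vnd2, and the medians were -0.10 in athb15, -0.0137 in athb25 (a change of sign), 0.38 in hat2, 0.22 in lmi1, -0.25 in smb, -0.15 in the libraries labelled wrky14 and -0.65 in vnd2. The share of all genes called against that mean is not given here, so these counts stand without a background.

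With the replicate number as a block, the count was 1 in athb25 and 27 in the libraries labelled obp1, and no other count moved by more than 1.5 times. Members not called under the block were PSBX (adjusted p = 0.0141) and PSBS (0.0102) in athb25, LHCA3 and PSBR in hat2, and LHCB2.2, PSAE2 and PSBW in the libraries labelled obp1. The numbers did not pair the samples: over 36 pairs of genotypes the correlation of replicate differences across all tested genes ran from -0.16 to 0.19 (median -0.0097), and across the members from -0.73 to 0.50 (median 0.06).

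Leaving out a library in turn, with a lone sample assumed to vary like the other groups, gave 0 to 1 calls in athb25, 0 to 11 in hat2, 0 to 6 in lmi1, 8 to 17 in the libraries labelled obp1, 0 to 9 in vnd2, 35 to 42 for obp1 against vnd2 and 36 to 42 for any difference, and 0 to 0 in athb15, smb and the libraries labelled wrky14. The medians ran from 0.01 to 0.15 in athb15, 0.15 to 0.24 in athb25, 0.43 to 0.71 in hat2, 0.24 to 0.51 in lmi1, 0.71 to 0.80 in the libraries labelled obp1, -0.08 to 0.19 in the libraries labelled wrky14, -0.12 to 0.06 in smb, -0.62 to -0.17 in vnd2 and 0.92 to 1.34 for obp1 against vnd2. With 2 libraries a genotype, changes under about the spread of the medians between replicates (SD 0.165) were not resolved, and LHCB2.3, on 3 to 30 counts a library, was limited by depth.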
